A study of Mus musculus with 74 samples.

Results

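A set of 5501 promoter contacts was listed in both erythroid-induced samples of the mouse blood progenitor line HPC-7 and not listed in its progenitor sample. A contact here is a pair of HindIII restriction fragments, a captured fragment chosen for a gene promoter and an other end that is never a captured fragment in any list. Members lay on 1 chromosome with 50 kb to 1000 kb between fragment midpoints, scored 6 or more in both erythroid lists and were absent from the progenitor list. They were 5501 of 150733 distal fragment pairs and of 246363 listed pairs of all kinds. Of the 21663 distal pairs scoring 6 or more in both erythroid lists, 25.4% were absent from the progenitor list. The members were selected on these scores, so scores given below describe them and support nothing else.

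HPC-7 grows with stem cell factor (SCF) as a progenitor line. The Ery Luc list came from cells with a doxycycline-induced short hairpin RNA against luciferase, a control target, and the Ery shStag2 list from cells with a hairpin against Stag2, a subunit gene of cohesin. Both Ery cultures had doxycycline for 72 h (73 h on the label of 1 Ery Luc library), erythropoietin (EPO) at 4 U/l and SCF at 20 ng/ul. The HPC list came from non-transduced cells with SCF at 100 ng/ul. How long EPO was given to these capture libraries is not given in the sources used here, and all of them carry the same cell type label, stem and progenitor cells. Each list pools 2 libraries, so no contact has a replicate and no test was possible. Stage, hairpin vector and library cannot be told apart in any difference between the Ery lists and the HPC list.

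Promoter capture Hi-C joins DNA ends that lie close together in the nucleus and keeps the joined pairs that hold a promoter. The other ends include enhancers, silencers, other loops and neighbouring chromatin, and the assay does not tell which of them act on the gene. Cohesin extrudes chromatin loops that stop at bound CTCF, and many promoter contacts lie within such loops. Red cell development from progenitors is driven by GATA1, TAL1, LMO2 and KLF1, which act largely from distal enhancers, and by signalling from the EPO receptor.

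Promoter sequences are shown for the captured end of genes described below, those with the most gained contacts on the fragment holding their own start among the genes of erythroid regulation (Ssbp3), heme (Alad, Blvrb), iron (Aco1), progenitors (Mycn) and immediate-early response (Jun). Each runs 5′ to 3′ from 250 bases before to 50 after an annotated start, from RefSeq on GRCm38.p6. The windows are Alad chr4:62520014-62520313 (minus strand, the more upstream of its 2 annotated starts), Blvrb chr7:27447728-27448027 (plus), Ssbp3 chr4:106911220-106911519 (plus), Aco1 chr4:40143015-40143314 (plus), Mycn chr12:12941787-12942086 (minus) and Jun chr4:95052173-95052472 (minus). Capitals mark GATA words (AGATAA and the word TGATAA, and, ending in the other purine, AGATAG and the word TGATAG) and CACCC words (CCACACCC and the word CCACGCCC), searched on both strands.
Alad: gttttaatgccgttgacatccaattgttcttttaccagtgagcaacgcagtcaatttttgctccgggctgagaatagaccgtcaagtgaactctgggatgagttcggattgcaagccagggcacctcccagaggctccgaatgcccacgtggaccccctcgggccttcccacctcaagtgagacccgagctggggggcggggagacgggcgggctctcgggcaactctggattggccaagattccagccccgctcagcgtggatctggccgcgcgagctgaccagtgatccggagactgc
Blvrb: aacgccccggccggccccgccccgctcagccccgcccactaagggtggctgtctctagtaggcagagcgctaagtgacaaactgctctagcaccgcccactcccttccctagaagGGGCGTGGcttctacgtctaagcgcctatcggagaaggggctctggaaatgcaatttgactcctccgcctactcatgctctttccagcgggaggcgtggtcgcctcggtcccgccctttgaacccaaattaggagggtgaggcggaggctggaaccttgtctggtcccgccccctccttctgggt
Ssbp3: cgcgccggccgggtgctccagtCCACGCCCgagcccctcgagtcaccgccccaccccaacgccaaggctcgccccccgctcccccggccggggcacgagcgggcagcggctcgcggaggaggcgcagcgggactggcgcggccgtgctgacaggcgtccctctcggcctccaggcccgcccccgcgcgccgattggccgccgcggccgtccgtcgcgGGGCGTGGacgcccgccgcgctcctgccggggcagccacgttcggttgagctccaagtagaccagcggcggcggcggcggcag
Aco1: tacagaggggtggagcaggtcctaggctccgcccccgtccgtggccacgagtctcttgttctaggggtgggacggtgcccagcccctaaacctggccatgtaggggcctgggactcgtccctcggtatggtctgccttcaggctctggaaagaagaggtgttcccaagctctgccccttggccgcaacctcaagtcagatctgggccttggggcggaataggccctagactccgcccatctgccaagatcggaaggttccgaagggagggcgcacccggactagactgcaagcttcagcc
Mycn: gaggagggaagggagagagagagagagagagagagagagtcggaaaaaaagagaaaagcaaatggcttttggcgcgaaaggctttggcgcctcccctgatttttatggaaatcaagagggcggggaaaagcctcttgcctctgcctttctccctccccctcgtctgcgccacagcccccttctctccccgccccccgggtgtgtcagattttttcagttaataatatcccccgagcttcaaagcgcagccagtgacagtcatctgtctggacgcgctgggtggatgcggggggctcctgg
Jun: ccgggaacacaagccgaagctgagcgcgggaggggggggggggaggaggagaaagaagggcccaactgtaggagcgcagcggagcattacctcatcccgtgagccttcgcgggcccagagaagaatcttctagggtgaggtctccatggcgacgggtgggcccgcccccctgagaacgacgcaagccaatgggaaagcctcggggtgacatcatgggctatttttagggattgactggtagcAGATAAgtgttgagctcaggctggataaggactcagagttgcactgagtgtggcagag
In these windows Jun held 1 GATA word, Blvrb 1 CACCC word and Ssbp3 2 CACCC words, and no 2 marked words overlapped. Alad, Aco1 and Mycn held neither kind. Over windows of the same length, a GATA word was in 19.2% of 2573 promoters on captured fragments with a gained contact, in 23.9% of 12771 on captured fragments without one and in 26% of all 21263. A CACCC word was in 13.8%, 11% and 10.2% of the same windows. These matches describe letters in the window only.

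The share absent from the third list was larger for the erythroid pair than for the other pairs of lists. Of contacts scoring 6 or more in both Ery lists, 25.4% were absent from HPC (exact 95% interval 24.8 to 26). Of 19743 scoring 6 or more in Ery Luc and HPC, 17.5% were absent from Ery shStag2 (16.9 to 18), and of 19780 in Ery shStag2 and HPC, 18.1% were absent from Ery Luc (17.6 to 18.7). The intervals cover counting error only, and neighbouring contacts are not independent. Another 14128 contacts scored 6 or more in all 3 lists and are called constant below. In the opposite direction, 12977 contacts scored 6 or more in HPC and were absent from both Ery lists, and these are called lost. The Ery Luc, Ery shStag2 and HPC lists held 44152, 48249 and 44161 distal contacts at 6 or more, and no source used here gives their read depths.

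Gained contacts were mostly of modest score. Their median score was 7.5 in Ery Luc and 7.69 in Ery shStag2, and that of constant contacts was 9.24 in Ery Luc, 9.38 in Ery shStag2 and 9.69 in HPC. The lower of the 2 Ery scores was 6 to under 6.5 for 1822 members. Just outside the rule lay 2822 pairs absent from HPC with a lower Ery score of 5.5 to under 6, and 2034 pairs at 6 or more in both Ery lists with an HPC score of 5 to under 6. No list holds a score under 5, so absence from HPC means any score below that. The share absent from HPC was 38.3% of 7936 contacts with a lower score of 6 to under 7 and 1.86% of 1022 with 15 or more. In the top bin the share absent from Ery shStag2 was 0.112% (1 of 892), and none of 978 was absent from Ery Luc (upper limit of the exact interval 0.376%). Thus 19 contacts scored 15 or more in both Ery lists and had no entry in HPC.

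Gained contacts spanned longer distances than constant ones. Their median distance was 259 kb (quartiles 164 and 406 kb), against 187 kb for constant contacts (119 and 286 kb) and 186 kb for lost contacts (111 and 302 kb). At least 400 kb were spanned by 25.7% of gained contacts, 11.9% of constant contacts and 13.2% of lost contacts. The share absent from HPC was 14.6% at 50 to 100 kb, 20% at 100 to 200 kb, 27.9% at 200 to 400 kb, 39.2% at 400 to 700 kb and 52.1% (48.2 to 56) at 700 to 1000 kb. Absence from Ery shStag2 did not follow distance in this way, with 18.1% in the shortest bin and 14% (10.3 to 18.3) in the longest. Absence from Ery Luc ran from 13.7% in the shortest bin to 27.5% (23.2 to 32.2) in the longest. The whole lists differed in the same respect, with a median distance at 6 or more of 217 kb in Ery Luc, 241 kb in Ery shStag2 and 184 kb in HPC. The part of this difference in the gained set was not tested.

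**Figure D1:**
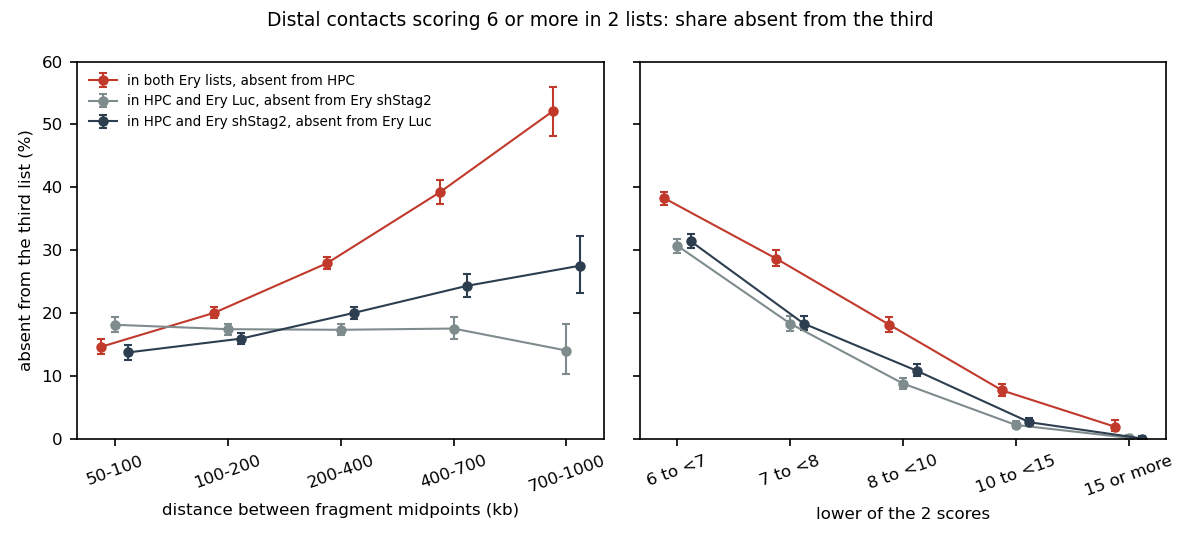
Share of distal contacts scoring 6 or more in 2 lists that was absent from the third, by distance between fragment midpoints in kb (left) and by the lower of the 2 scores (right). Points are shares in percent and bars exact 95% binomial intervals for counting error. Absence from HPC was 14.6% in the shortest and 52.1% in the longest distance bin, and 38.3% in the lowest and 1.86% in the highest score bin.

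Most gained contacts lay beside a contact that HPC cells already had. For 70.5% of them (69.3 to 71.7) the HPC list held a contact of the same captured fragment whose other end lay within 10 kb, and the median distance to the nearest such contact was 5.04 kb. Within 5 kb the share was 49.7%, within 20 kb 82.4% and within 100 kb 92.5%. A gained contact is therefore a fragment pair missing from the HPC list, in most cases within a region that the same promoter already contacted. The shares within 10 kb were higher for contacts absent from Ery shStag2 (77.8%, 76.4 to 79.2) and for those absent from Ery Luc (79.9%, 78.6 to 81.2). Beyond the farthest HPC contact of their captured fragment lay 935 of 5377 gained contacts, or 17.4% (16.4 to 18.4). The matching shares were 8.05% for contacts beyond the farthest Ery shStag2 contact and 7.83% for those beyond the farthest Ery Luc contact. Another 124 of the 5501 gained contacts belonged to 94 captured fragments with no HPC contact on their chromosome. By the same measure, 43 of 3446 contacts absent from Ery shStag2 and 33 of 3584 absent from Ery Luc had no contact there.

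**Figure D2:**
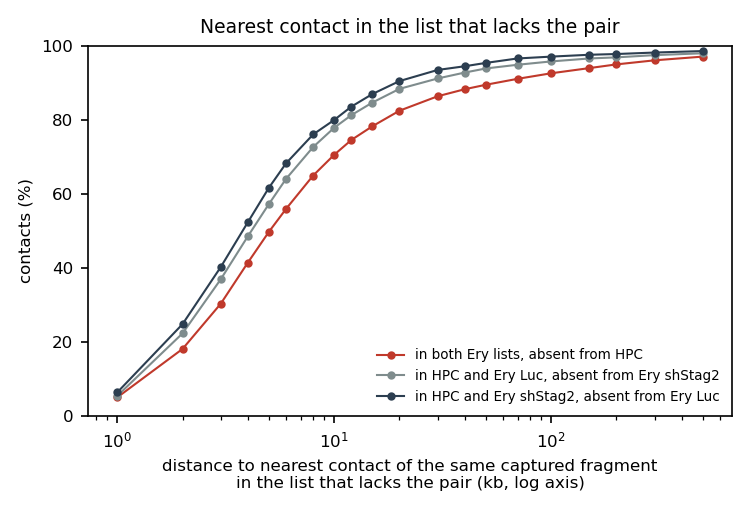
Cumulative share of contacts (percent) by the distance in kb, on a log axis, to the nearest contact of the same captured fragment in the list that lacks the pair. The curve for the 5501 gained contacts (red) lies below both others, with 70.5% within 10 kb against 77.8% and 79.9%.

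The gained contacts were spread over 3095 captured fragments and 4987 other ends. A single gained contact was seen at 1885 captured fragments, 2 to 4 at 1066 and 5 or more at 144, the last holding 921 contacts. By the gene records, a protein-coding gene start or end lay in 2438 of the 3095 fragments. Fragments with a coding start by the RefSeq promoters only, such as that of Pdpk1, are not in this count. Of the 3095 fragments, 1774 also had a lost contact and 1791 a constant one, while 505 had no distal HPC contact at 6 or more. Of all 15973 captured fragments with a distal contact in any list, 5727 had a lost contact and 3447 a constant one. Such a count over all fragments is not given here for gene boundaries or for lack of a distal HPC contact. A fragment with many contacts is more easily counted in each class, and this was not adjusted for. The side was read where the captured fragment held annotated starts of 1 strand only. There the other end lay upstream of the start for 48.5% of 2959 gained contacts (46.6 to 50.3), 50.8% of 7490 constant contacts and 51.6% of 6889 lost contacts. It overlapped no protein-coding gene for 36.3% of gained, 38.3% of constant and 34.8% of lost contacts, and held a coding gene start or end for 9.33%, 7.57% and 6.4% in the same order.

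The 10 captured fragments with the most gained contacts each had more distal contacts at 6 or more in both Ery lists than in HPC. The rule itself favours this. Here and below, contact counts of a fragment cover distal contacts only. A gene is named where its annotated start or end lies on the fragment. The fragment chr7:126080690-126086423 over an annotated boundary of Gsg1l, an auxiliary subunit gene of AMPA receptors, had 12 gained contacts, all on its lower-coordinate side at 237 to 409 kb. It had 35 contacts at 6 or more in Ery Luc and 31 in Ery shStag2, against 17 in HPC. Armc5, whose product takes part in ubiquitin ligases, also had 12 (chr7:128237159-128237871), with 21 contacts in Ery Luc, 26 in Ery shStag2 and 6 in HPC. Gain was thus one-sided at Gsg1l and nearly so at Armc5, where 11 of the 12 lay on the higher-coordinate side.

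Another 7 of these fragments had 11 gained contacts each. The fragment with the start of Pdpk1, the kinase that activates AKT, had 28 contacts at 6 or more in Ery Luc, 27 in Ery shStag2 and 10 in HPC, and its gained contacts all lay on 1 side at 171 to 302 kb. At Dnaja1, a co-chaperone of HSP70, the numbers were 30 in Ery Luc, 43 in Ery shStag2 and 12 in HPC, with gained contacts reaching 592 kb. Ldlrad4, an inhibitor of TGF-beta signalling, had the lowest HPC level of the set, with 20 contacts in Ery Luc, 17 in Ery shStag2 and 3 in HPC. At Brd7, a bromodomain subunit of the PBAF chromatin remodeller, gained contacts lay on both sides, 6 and 5, with 34 contacts in Ery Luc, 51 in Ery shStag2 and 19 in HPC. The fragment of Htd2 and Rpp14 had 45 in Ery Luc, 42 in Ery shStag2 and 27 in HPC, and that of Enkd1 and 4933405L10Rik had 58, 52 and 30 in the same lists. Washc1, a subunit of the WASH complex of endosomes, had 40 in Ery Luc, 42 in Ery shStag2 and 22 in HPC. Its neighbour Ndufv2, a subunit gene of respiratory complex I, had 10 gained contacts and 42 in Ery Luc, 53 in Ery shStag2 and 27 in HPC.

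Neighbouring promoters shared some of these gains. When contacts whose captured and other ends both lay within 100 kb were joined, the gained contacts formed 2535 blocks, of which 1424 were a single contact. Blocks of 10 or more held 12.8% of gained contacts, against 55.2% of constant and 26.2% of lost contacts. Joining depends on how many contacts a class has, here 5501 gained, 14128 constant and 12977 lost, which was not adjusted for. The largest block had 37 gained contacts between 7 captured fragments at chr17:24072984-24266653, around Pdpk1, Ccnf and Tbc1d24, and 20 other ends at chr17:24317062-24453423, around Abca3 and Rnps1. A block of 32 on chromosome 15 joined 9 captured fragments around Chkb and Lmf2 with 25 other ends. Ddx11, Ndufv2 and Washc1 shared a block of 30 on chromosome 17, with other ends in the region of Ppp4r1. A block on chromosome X held 20 gained contacts from 3 captured fragments. The fragment of Hprt had 4 of them, and fragments without a coding gene start or end had 9 and 7. A block with Mybl2 and Srsf6 on chromosome 2 held 19, and 7 captured fragments of the histone gene cluster on chromosome 13 held 16.

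Few other ends had gained contacts with many captured fragments. Of 4987 other ends of gained contacts, 8.76% had gained contacts with 2 or more captured fragments, against 21.8% of the other ends of constant contacts. Sharing also depends on the number of contacts in a class, 5501 gained and 14128 constant, which was not adjusted for. A fragment within Cd244a, a receptor gene of natural killer cells (chr1:171565175-171566234), had gained contacts with 5 captured fragments, among them those of Slamf7, Vangl2 and Alyref2. Over all captured fragments it had 9 distal contacts at 6 or more in Ery Luc, 8 in Ery shStag2 and 0 in HPC. A fragment in Ppp2r5c, a regulatory subunit gene of protein phosphatase 2A (chr12:110454215-110458091), was also contacted by 5, those of Mok, Zfp839 and Dync1h1 among them. It had 5 contacts in Ery Luc, 5 in Ery shStag2 and 0 in HPC. These fragments thus had no distal HPC contact at 6 or more with any captured fragment. Of the 3 next fragments, each with 4, chr2:163401057-163401536 was contacted by the fragments of Srsf6, L3mbtl1 and Sgk2 among others. It had 4 contacts in Ery Luc, 7 in Ery shStag2 and 0 in HPC. A fragment at chr13:23748389-23748800 was contacted by fragments of histone genes including H3c6 and had 6, 7 and 2 in the same lists. The last, in Diaph1 on chromosome 18, was contacted by fragments of protocadherin beta genes among others and had 7, 7 and 2.

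The strongest gained contacts reached scores of 17.36 to 22.05 by the lower of both Ery scores. The highest joined the captured fragment chr1:57419857-57423895, which holds no protein-coding gene start or end, with chr1:58270303-58272675, 850 kb away, at 23.66 in Ery Luc and 22.05 in Ery shStag2. The nearest HPC contact of that captured fragment lay 1.43 kb from this other end. Next came Pcdhb15 and Pcdhb16, protocadherin beta genes, with Diaph1, an actin-nucleating formin gene, 415 kb away (20.3 in Ery Luc, 24.44 in Ery shStag2). Mok, a kinase gene, had a contact 421 kb away at 20.35 in Ery Luc and 20.17 in Ery shStag2. All 10 strongest contacts had an HPC contact of the same captured fragment within 10 kb.

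Distance and HPC level varied widely within the 10. Mmp17, a membrane-bound metalloproteinase gene, had 5 contacts at 6 or more in Ery Luc, 11 in Ery shStag2 and 0 in HPC. Its strongest gained contact, 522 kb away, reached 21.87 in Ery Luc and 19.49 in Ery shStag2. Grpel1, a nucleotide exchange factor of mitochondrial protein import, likewise had 15, 6 and 0 in the same lists, and a contact 279 kb away in Bloc1s4 at 21.82 in Ery Luc and 17.45 in Ery shStag2. Riok2, a kinase of small ribosomal subunit maturation, had a contact 272 kb away at 18.45 in Ery Luc, 21.72 in Ery shStag2, with 25, 29 and 13 contacts. The fragment of Cep57 and Fam76b had one 584 kb away at 17.68 in Ery Luc and 19.68 in Ery shStag2. The histone gene H3c6 contacted its shared fragment 187 kb away at 17.6 in Ery Luc and 17.36 in Ery shStag2. The remaining 2 belonged to captured fragments without a coding gene start or end, at 671 kb (18.69 in both Ery lists) and at 997 kb (20.48 in Ery Luc, 17.44 in Ery shStag2).

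A smaller group of gained contacts lay far from any HPC contact listed for the same captured fragment. In 414 of 5501 cases the nearest HPC contact of the captured fragment was over 100 kb away or there was none. The matching counts were 148 of 3446 contacts absent from Ery shStag2 and 108 of 3584 absent from Ery Luc. The examples here were chosen after their values were seen. The fragment of Efcab14 (chr4:115734560-115741553), a calcium-binding protein gene, had 12 contacts at 6 or more in Ery Luc, 11 in Ery shStag2 and 0 in HPC, and 6 gained contacts. The strongest of them lay 214 kb away at 11.76 in Ery Luc and 15.71 in Ery shStag2. The fragment of Acin1 and Cdh24 had 13 contacts in Ery Luc, 14 in Ery shStag2 and 3 in HPC, and 5 gained contacts, 1 of them at 576 kb with 12.34 in Ery Luc and 15.42 in Ery shStag2, 163 kb from the nearest HPC contact. Hoxd8, a homeobox gene, had 11 in Ery Luc, 17 in Ery shStag2 and 4 in HPC and 8 gained contacts. Of these 8, 2 had an HPC contact of the fragment within 10 kb. At Knl1, a kinetochore scaffold gene, a contact 147 kb away reached 11.0 in Ery Luc, 14.02 in Ery shStag2, with no distal HPC contact at 6 or more.

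Gained contacts were then read over 15 gene lists. Of 16720 protein-coding genes with a start or end on a captured fragment, 17.9% had at least 1 gained contact. The share was above this in 12 of the 15 lists, whether erythroid or not. It was highest for stem and progenitor genes (14 of 30, 46.7%), erythroid transcription regulators (14 of 31, 45.2%), S-phase genes (12 of 27, 44.4%), heme synthesis and transport (8 of 19, 42.1%) and EPO receptor signalling (12 of 31, 38.7%). Iron handling (7 of 22) and megakaryocyte genes (7 of 22) both stood at 31.8%, and erythroid enzymes at 28.6% (8 of 28). The median number of gained contacts per gene was 0 in each list and over all genes. Since the lists differ in how many contacts their genes have, the share was taken over contacts as well. Of contacts at 6 or more in both Ery lists, 25.7% were absent from HPC over all named genes. That share was 21.2% for erythroid regulators (35 of 165), 21.3% for EPO signalling (19 of 89), 26.5% for progenitor genes (31 of 117) and 29.9% for S-phase genes (20 of 67). It was 32.1% (25 of 78, interval 21.9 to 43.6) for heme genes, 41.9% (13 of 31, 24.5 to 60.9) for iron genes, 39.3% (11 of 28, 21.5 to 59.4) for myeloid and lymphoid genes and 28.1% (9 of 32) for cohesin genes, and the 3 intervals contain the value of all genes. For membrane genes the share of contacts was 24.5% (12 of 49) and for erythroid enzymes 25.5% (24 of 94). Mast cell genes stood at 26.3% (5 of 19). Lower shares were 18.7% for immediate-early genes (29 of 155), 15.4% for megakaryocyte genes (8 of 52) and 13.5% for G2 and mitosis genes (5 of 37). A gene is named here where its annotated start or end lies on the captured fragment. By the RefSeq starts, the fragments with gained contacts of Hemgn, Tfr2, Add1, Epor, Elane and Nbeal2 do not hold that gene's start. For Gsg1l, Lmo2, Fech, Slc40a1, Slc14a1, Car2, Socs2, Gab2, Ikzf2, Ddx11, Ccne2, Gins2 and Zfp36l2 it was not settled which boundary of the gene the fragment holds. The same holds for Osm and Id1. No recorded start of the gene lay on the fragments named for Acin1, Armc5, Ldlrad4, Mmp17, Pcdhb15, Pcdhb16 and Sgk2.

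**Figure D3:**
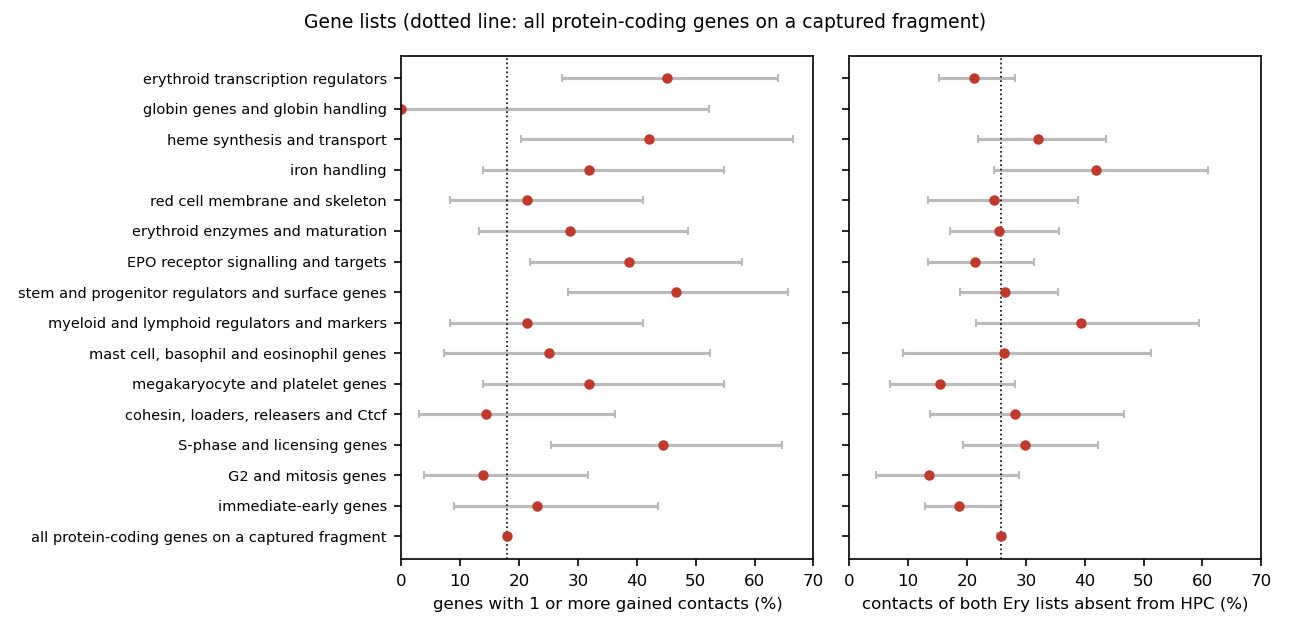
Share in percent of each list's genes with at least 1 gained contact (left) and share of each list's contacts at 6 or more in both Ery lists that was absent from HPC (right), with exact 95% binomial intervals for counting error. Dotted lines mark all protein-coding genes on captured fragments, at 17.9% and 25.7%. Erythroid regulators lie at 45.2% on the left and 21.2% on the right, and the globin list has no contact to count on the right.

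Among erythroid transcription regulators, Ssbp3 had the most gained contacts. Ssbp3 and Ssbp2 encode single-stranded DNA-binding proteins that stabilise LDB1, the partner that joins GATA1 and TAL1 complexes into loops. Ssbp3 had 27 contacts at 6 or more in Ery Luc, 36 in Ery shStag2 and 23 in HPC, and its 6 gained contacts lay 76.1 to 265 kb away. The best of them, within Ssbp3 itself at chr4:106989548-106992921, reached 10.47 in Ery Luc and 11.3 in Ery shStag2. Ssbp2 had 17 in Ery Luc, 13 in Ery shStag2 and 9 in HPC. Its 4 gained contacts included 3 at 486 to 530 kb, around Atg10, led by 1 at 10.03 in Ery Luc and 11.89 in Ery shStag2. So both genes had more contacts in each Ery list than in HPC.

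Ikzf1, which encodes the lymphoid and erythroid zinc finger protein Ikaros, had 5 gained contacts on a fragment with the upstream boundary of its gene record (chr11:11681896-11685640), just before the starts in the RefSeq promoter table, all on the lower-coordinate side at 103 to 198 kb. The contact at 198 kb reached 16.27 in Ery Luc and 8.97 in Ery shStag2, and the contact at 160 kb 13.08 and 9.79. The fragment had 33 contacts in Ery Luc, 23 in Ery shStag2 and 23 in HPC, so the shStag2 number equalled that of HPC. Klf13, a Krüppel-like factor gene, had 4 gained contacts, the best 213 kb away at 9.71 in Ery Luc, 10.64 in Ery shStag2, with 27, 35 and 22 contacts in Ery Luc, Ery shStag2 and HPC. Trim10, a ring finger gene of red cell maturation, had 3 at 166 to 210 kb, and Hemgn, a target of GATA1, had 3 on a fragment that it shares with Trmo. Both of these fragments had fewer contacts in Ery than in HPC (12 in Ery Luc, 17 in Ery shStag2 and 18 in HPC for Trim10, and 10, 9 and 15 for Hemgn).

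The core erythroid factors had few gained contacts. Tal1 had 1, 771 kb away over Mob3c, at 9.33 in Ery Luc and 6.57 in Ery shStag2. Lmo2, which bridges TAL1 and LDB1, had 1 at 88.2 kb, and Zfpm1, which encodes the GATA1 cofactor FOG1, 1 at 309 kb in Banp. Myb, a regulator of proliferating progenitors, had 2 in Ahi1 at 181 and 195 kb, with 33 contacts in Ery Luc, 22 in Ery shStag2 and 29 in HPC. Tcf3, which encodes the TAL1 partner E2A, had 2 at 130 and 132 kb. Sox6, Foxo3 and Klf3 had 1 each, at 692, 602 and 356 kb. Gata1, Klf1 and Alas2 had none, with at most 5 contacts at 6 or more in any list. No gene of the globin list had 1, 5 of the 9 being on a captured fragment and none with a distal contact at 6 or more in both Ery lists. Of the 10 erythroid marker genes, 4 had a gained contact, Epor and Tfrc among them, against 17.9% of all genes on a captured fragment. Another of the 10 was on no captured fragment and could have none. Gained contacts were not particular to erythroid markers. Flt3, Meis1, Mpo and Elane, markers of progenitor and myeloid cells, had them too, while Kit, Cd34, Csf1r and the mast cell markers had none. Some mast cell markers could have none, with no captured fragment or no distal contact at 6 or more in any list. A gained contact says nothing of the RNA level.

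Heme synthesis genes were led by Alad, which encodes the enzyme that makes porphobilinogen. Its start fragment (chr4:62518748-62525477, shared with Pole3 and 4933430I17Rik) had 7 gained contacts, with 21 contacts at 6 or more in Ery Luc, 23 in Ery shStag2 and 13 in HPC. The strongest were at 117 kb in Cdc26 (9.68 in Ery Luc, 10.38 in Ery shStag2), at 110 kb in Prpf4 (10.05 and 8.88) and at 183 kb in Fkbp15 (8.73 and 11.77). The adjoining fragment inside Alad had 1 gained contact and 44 contacts in Ery Luc, 44 in Ery shStag2 and 51 in HPC. Gain was thus seen at the start fragment and hardly at its neighbour.

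Blvrb, the biliverdin reductase gene of red cells, belongs to heme breakdown but was counted in the heme list, with 6 of the list's 25 gained contacts. These 6 lay within 151 kb, on a fragment shared with Sptbn4. That fragment had 12 contacts in Ery Luc, 15 in Ery shStag2 and 4 in HPC. The strongest lay in Shkbp1, 91.2 kb away, at 8.93 in Ery Luc and 11.65 in Ery shStag2. All 6 contacts thus lay closer to their gene than the median gained contact, at 259 kb.

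Fech, which encodes the enzyme that puts iron into heme, had 2 gained contacts at 729 and 742 kb in Wdr7, with 5 contacts in Ery Luc, 12 in Ery shStag2 and 0 in HPC. Abcb10, a mitochondrial transporter gene of heme-making cells, had 3 over 2 captured fragments, and 2 of these shared the other end chr8:124348149-124353379 at 362 and 401 kb. From the start fragment it reached 9.57 in Ery Luc and 7.68 in Ery shStag2, and from the fragment shared with Nup133 8.17 and 8.4. Cpox and Ppox, of the later steps of the pathway, and Tmem14c, which helps porphyrin into mitochondria, had 1 each at 217, 393 and 234 kb.

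Iron handling genes were led by Aco1, which encodes the iron-sensing RNA-binding protein IRP1. Its start fragment (chr4:40141509-40143304) had 5 gained contacts, 4 of them at 528 to 555 kb, with 14 contacts in Ery Luc, 19 in Ery shStag2 and 8 in HPC. The strongest ended at chr4:40693603-40695496 in Aptx at 11.11 in Ery Luc and 11.35 in Ery shStag2. This lies near the captured fragments of a block of 16 gained contacts, 1 with the start of Dnaja1 and 1 with the start of Aptx. The other ends of that block lay in the region of Aco1, so the same stretch was seen from both sides. Tfrc, the transferrin receptor gene, had 1 gained contact 85.4 kb away, at 7.42 in Ery Luc and 8.35 in Ery shStag2. It had 5 contacts in Ery Luc, 1 in Ery shStag2 and 0 in HPC, and its nearest HPC contact lay 242 kb from this other end. Erfe, the gene of the hormone erythroferrone that lowers hepcidin, had 2 at 201 and 393 kb. Tfr2 had 2 within 69.2 kb, and Fth1, Slc40a1 (the iron exporter gene) and Glrx5 had 1 each. The contact of Fth1, in Fads1 at chr19:10191960-10198306, was shared with Rab3il1, which reached 9.87 in Ery Luc and 14.7 in Ery shStag2 there.

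In the red cell membrane list, Slc14a1 stood first, the gene of the urea transporter that carries the Kidd blood group. Its fragment on chromosome 18 had 24 contacts in Ery Luc, 14 in Ery shStag2 and 6 in HPC, and 4 gained contacts at 125 to 361 kb on 1 side. The strongest, 136 kb away in Epg5, reached 11.82 in Ery Luc and 8.78 in Ery shStag2. Add1 and Add3, adducin genes of the membrane skeleton, had 2 each, and Slc2a1, a glucose transporter gene, had 1. The count in this list was 6 of 28 genes, 21.4%, close to the 17.9% of all genes. With gene starts alone it was 2 of 18, or 11.1%, against 16.6% of all genes.

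Erythroid enzyme and maturation genes included Car2, the carbonic anhydrase gene, with 6 gained contacts at 89.3 to 232 kb on 1 side. Each scored under 7 by the lower score, and the fragment had 56 contacts in Ery Luc, 73 in Ery shStag2 and 57 in HPC. Ulk1, a kinase gene of the autophagy that clears mitochondria from red cells, had 4, 3 of them at 439 to 529 kb. Arl4a, a small GTPase gene, had 4 at 326 to 508 kb, with 19 contacts in Ery Luc, 20 in Ery shStag2 and 10 in HPC. Mxi1, the gene of a MYC antagonist, had 3, with 17 in Ery Luc, 25 in Ery shStag2 and 13 in HPC. Bcl2l1, whose product Bcl-xL keeps erythroblasts alive, had 2 on its start fragment, at 145 and 183 kb, and this fragment had 6 contacts in Ery Luc, 3 in Ery shStag2 and 0 in HPC (13, 7 and 4 over both of its captured fragments). The nearer, in H13, reached 6.19 in Ery Luc and 15.53 in Ery shStag2. Isg20, an exonuclease gene, had 2 adjoining ones in Abhd2 at 431 and 439 kb and no distal HPC contact at 6 or more. Rab3il1 had 2, and Rexo2 had 1 at 494 kb with 10.32 in Ery Luc and 11.12 in Ery shStag2.

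Of 31 EPO signalling genes, 12 had a gained contact (38.7%, against 17.9% of all genes), and 8 of these had a single one. The EPO receptor gene Epor had 1, 189 kb away, on a fragment that holds the start of Swsap1 and not that of Epor, at 6.85 in Ery Luc and 8.78 in Ery shStag2. The feedback inhibitor gene Cish, a STAT5 target, had 4 over 2 fragments at 323 to 621 kb, the best in Dock3 at 7.21 in Ery Luc and 12.71 in Ery shStag2. Socs2, another STAT5 target, had 1 at 429 kb, 132 kb from its nearest HPC contact. Osm, a cytokine gene induced by STAT5, had 3 on a fragment shared with Lif at 200 to 607 kb. Dusp6, the ERK phosphatase gene, had 2 at 308 and 354 kb, while its contacts at 6 or more were 7 in Ery Luc, 17 in Ery shStag2 and 18 in HPC. Pim3, Spry1, Gab2, Pik3r1, Id1 and the ubiquitin ligase gene Cbl had 1 each. The contact of Id1 ended in Bcl2l1 at chr2:152823498-152829940, beside the captured fragment of that gene, at 6.13 in Ery Luc and 11.59 in Ery shStag2.

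Progenitor genes had 31 gained contacts among 117 at 6 or more in both Ery lists (26.5%). The erythroid regulators had 35 among 165 (21.2%), and the share over all named genes was 25.7%. Mycn, a MYC family gene of stem cells, had 8, with 37 contacts at 6 or more in Ery Luc, 35 in Ery shStag2 and 18 in HPC. Of these 7 lay on the lower-coordinate side at 378 to 606 kb. The contact at 388 kb reached 12.77 in Ery Luc and 11.66 in Ery shStag2, and the contact at 606 kb in Cyria 11.23 and 19.86. Each of the 8 had an HPC contact of Mycn within 10 kb. Sox4, a transcription factor gene of progenitors, had 6 over 2 fragments, all in Cdkal1 at 648 to 889 kb. The best reached 14.03 in Ery Luc and 11.54 in Ery shStag2, and its start fragment had 11 contacts in Ery Luc, 29 in Ery shStag2 and 10 in HPC. Runx1, a master regulator of blood stem cells, had 2 neighbouring ones at 464 and 469 kb, with scores of 6.09 and 8.31 in Ery Luc, and of 15.24 and 16.03 in Ery shStag2. It had 10 contacts in Ery Luc, 9 in Ery shStag2 and 2 in HPC. Bmi1, a Polycomb gene, had 3 (9 contacts in Ery Luc, 4 in Ery shStag2 and 2 in HPC), and Flt3, a cytokine receptor gene, had 2 at 448 and 456 kb (7, 4 and 1 in the same lists). Ikzf2 had 2 although it had fewer contacts in the Ery lists, 63 in Ery Luc and 51 in Ery shStag2 against 75 in HPC.

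**Figure D4:**
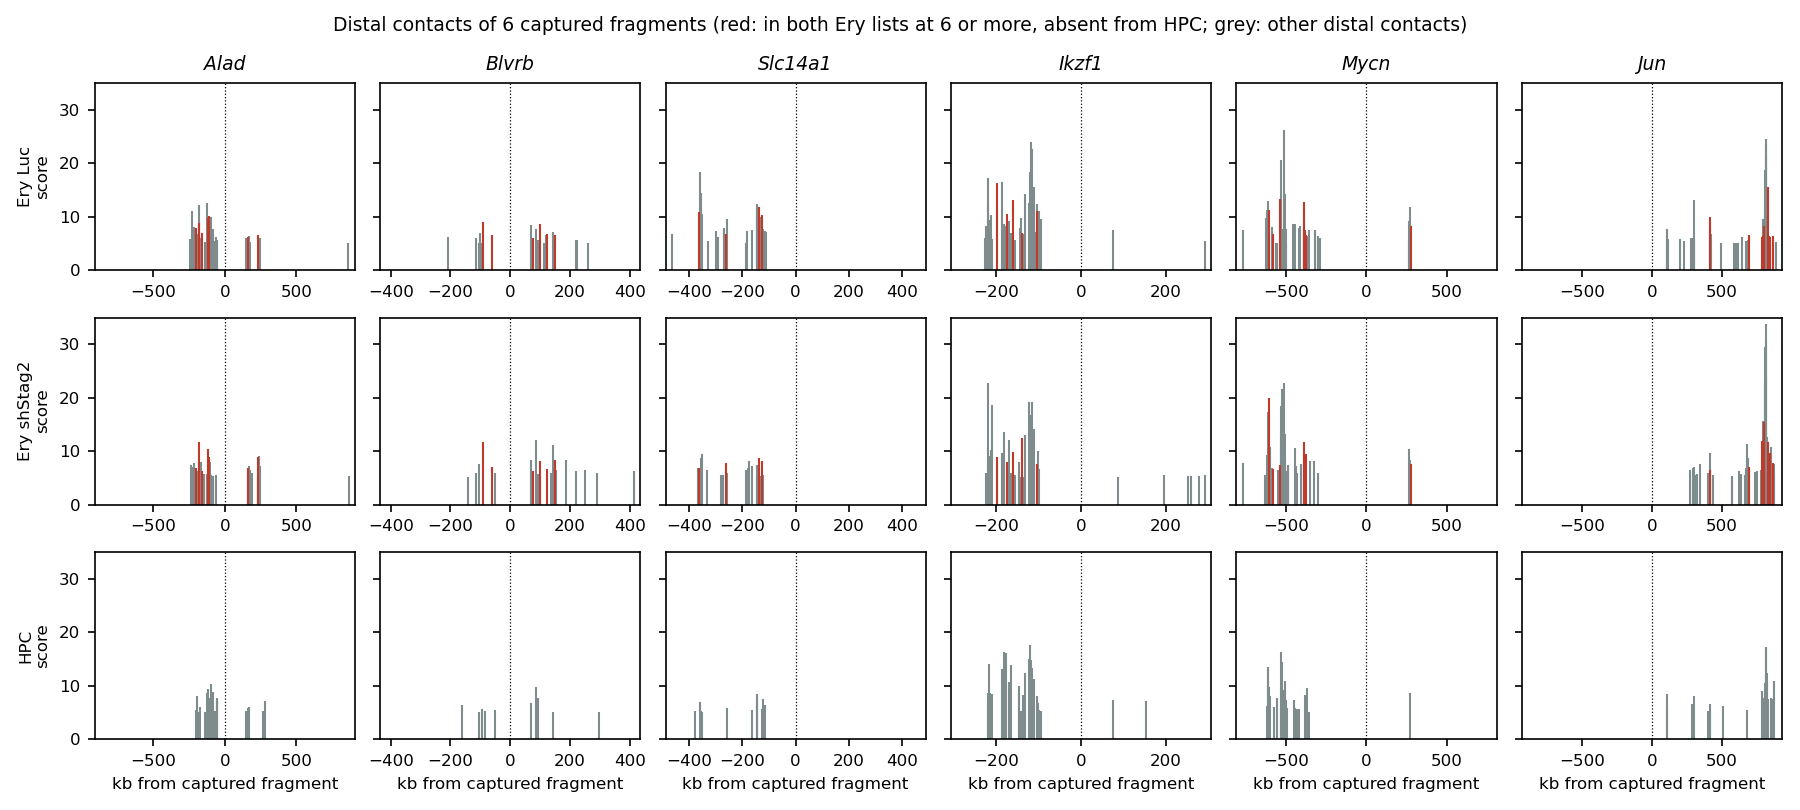
Score of each distal contact by its distance in kb from the captured fragment, for the fragments described for Alad (start), Blvrb, Slc14a1, Ikzf1, Mycn and Jun. Rows are the Ery Luc, Ery shStag2 and HPC lists, red bars are gained contacts and grey bars all other distal contacts listed. Red bars stand among grey bars, and at Mycn and Jun most lie beyond 300 kb.

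Other blood cell types were covered by 3 lists. Myeloid and lymphoid genes had a gained contact at 6 of 28 (21.4%), mast cell, basophil and eosinophil genes at 4 of 16 (25%) and megakaryocyte genes at 7 of 22 (31.8%), against 17.9% of all genes. Of their contacts in both Ery lists, 39.3%, 26.3% and 15.4% in the same order were absent from HPC, against 25.7% over all named genes. Elane, the neutrophil elastase gene, had 3 on a fragment with the start of Cfd, which had 8 contacts in Ery Luc, 5 in Ery shStag2 and 1 in HPC. Over both captured fragments of Elane the contacts were 18 in Ery Luc, 8 in Ery shStag2 and 12 in HPC. Among myeloid regulators were Cebpb, with 2 gained contacts and 4, 10 and 2 contacts in Ery Luc, Ery shStag2 and HPC, and Id2, with 2 and 3, 4 and 2 contacts. Csf3r, the G-CSF receptor gene, had 2 at 881 and 934 kb and no distal HPC contact at 6 or more. Fcer1g, a signalling chain gene of the IgE receptor, had 2, 1 of them with the fragment chr1:170886012-170888087 that Ppox contacted too. Nbeal2, a platelet granule gene, had 2 at 179 and 190 kb. In the mast cell list, 66.7% of HPC contacts at 6 or more were lost from both Ery lists (52 of 78), against 29.1% over all named genes.

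S-phase genes included Mcm6, a helicase subunit gene, with 3 gained contacts at 465 to 476 kb and 8 contacts in Ery Luc, 7 in Ery shStag2 and 3 in HPC. The contact at 476 kb reached 12.58 in Ery Luc and 11.55 in Ery shStag2. Rrm2, the ribonucleotide reductase gene, had 2 at 229 and 231 kb on either side, with 36 in Ery Luc, 20 in Ery shStag2 and 17 in HPC. Gins2 had 3 in Gse1 at 257 to 297 kb. Mcm3, Orc6 and Ccne2 had 2 each. Genes of G2 and mitosis had a gained contact at 4 of 29 (13.8%), against 17.9% of all genes, and at none with both scores 7 or more. Mybl2, a transcription factor gene of the cell cycle, was among them with 2. Genes of cohesin and its partners had one at 3 of 21 (14.3%), again beside 17.9%. Of these, Ddx11, a helicase gene of sister chromatid cohesion, had 6 at 224 to 514 kb, with 37 contacts in Ery Luc, 23 in Ery shStag2 and 36 in HPC, and Maz, a zinc finger gene linked to CTCF sites, had 2.

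Jun and Ier3 led the immediate-early genes. Jun, an AP-1 subunit gene, had 9 gained contacts at 419 to 872 kb, all on the higher-coordinate side, and 8 of them in Fggy. It had 25 contacts at 6 or more in Ery Luc, 38 in Ery shStag2 and 19 in HPC. The best, at chr4:95885395-95887387, reached 15.6 in Ery Luc and 11.71 in Ery shStag2. Ier3, a stress response gene, had 11 over 2 adjoining fragments within 177 kb. Its start fragment had 8 contacts in Ery Luc, 12 in Ery shStag2 and 2 in HPC, and its best gained contact, 78.6 kb away, reached 16.65 in Ery Luc and 15.95 in Ery shStag2. Zfp36l2, an mRNA decay gene needed for early erythroid progenitors, had 4 at 200 to 316 kb, with 36 in Ery Luc, 45 in Ery shStag2 and 35 in HPC. Fosl2 and Dusp2 had 2 each. The list as a whole stood at 6 of 26 genes (23.1%, against 17.9% of all genes), and 18.7% of its contacts in both Ery lists were absent from HPC, against 25.7% over all named genes.

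Neither Ery list held the higher score throughout. The score was higher in Ery shStag2 than in Ery Luc for 53.4% of gained contacts and for 52.7% of constant contacts. Named members went both ways, higher in Ery Luc at Ikzf1 (16.27 in Ery Luc, 8.97 in Ery shStag2) and Flt3 (14.48 and 7.69), and higher in Ery shStag2 at Runx1 and Bcl2l1.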

How the data were processed

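Promoter capture Hi-C was read in 3 lists, for Ery Luc, Ery shStag2 and HPC cells, each a pool of 2 libraries. Per the labels' protocols, HindIII cut the chromatin and a promoter probe set enriched the fragments. The deposited lists give the authors' score for each fragment pair, with no score under 5, and the build is mm10 per the submitters' processing notes. The score's software and settings, and the depth, are not stated in the labels or lists. Scores were used to rank and filter pairs. Where scores of different lists are set side by side, this is description only, since the depths are unknown. From them, pairs were selected, compared by identical fragments, and given shares with exact (Clopper-Pearson) 95% intervals, which cover counting error only. With no replicates no test was run.

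Captured fragments took their gene names from GRCm38.p6, by coding genes with a start or end inside them. That table gives no exons. Counts on a fragment with several genes cannot be given to 1 of them; where known, starts come from RefSeq. The members and the 15 gene lists were chosen with earlier results of these data known. Named are the 10 captured fragments with the most gained contacts, the 10 strongest contacts (1 per captured fragment), the 5 most shared other ends, and listed genes with 2 or more gained contacts (1 or more for erythroid, heme, iron, membrane and EPO lists). Some items that this rule names are not reported here. Calculations used Python 3.11.15, pandas 2.3.3, numpy 2.4.6 and scipy 1.17.1 and were tested on simulated data. The 15 RNA-seq tables were not used, because no table used here pairs their transcript identifiers with gene symbols, so the planned test of RNA levels was not run. Sequences of the other ends were not used here. Alternatives were score thresholds of 5, 7 and 10, other distance limits, chromosome X left out, gene starts alone, and a demand that no HPC contact lie within 10 kb.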

Additional observations from a re-analysis of the deposited data

How the results depend on the processing

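The number of gained contacts was 12687 at a score threshold of 5, 2464 at 7 and 272 at 10, and 1621 when no HPC contact of the same captured fragment could lie within 10 kb of the other end. The share absent from HPC was 35.3%, 18% and 6.28% at those thresholds, 7.48% with the demand on neighbouring contacts and 27.3% for distances of 100 kb to 1 Mb. The median distance was 247, 268 and 331 kb, and the share with an HPC contact within 10 kb was 64.5%, 75% and 79.8%, at thresholds of 5, 7 and 10. With 20 kb in place of 10 kb that share was 82.4%. At each threshold more contacts were shared by the Ery lists and absent from HPC than shared by HPC with 1 Ery list and absent from the other, with 272 against 67 and 81 at 10. Leaving out chromosome X gave 5312 contacts, 25.1%, 259 kb and 70.8%. At a threshold of 7, 8 of 31 erythroid regulators, 6 of 19 heme genes and 3 of 22 iron genes had a gained contact, against 9.9% of all genes. With gene starts alone, in place of starts or ends, 7 of 24 EPO genes (29.2%), 2 of 18 membrane genes (11.1%), 1 of 13 mast cell genes (7.69%) and 2 of 23 G2 genes (8.7%) had one, against 16.6% of all genes. No paired analysis was possible because each list pools its libraries and no result comes from a test. The fits for RNA levels (with a replicate block, DESeq2, no filter on low counts, leaving out a replicate) were not run. Depth is unknown and sets which contacts pass the score, and the HPC cells were not transduced, so these numbers compare lists, not conditions.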

Other observations

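Chromosomes differed in the share of contacts of both Ery lists that was absent from HPC. It was 38.1% on X (189 of 496, exact interval 33.8 to 42.5), 34.5% on chromosome 18, 31.1% on chromosome 14 and 18.6% on chromosome 1 (16.8 to 20.4), against 25.4% overall. Chromosome Y had 11 of 25 contacts absent, 10 of them on the fragment of Uty. Some gained other ends held microRNA genes, chosen here after their values were seen. The fragment chr5:137525623-137529976 with Mir6418 had gained contacts with the fragments of Tfr2 and of Irs3, and the fragment chr8:121975227-121978325 with Mir7237 was the gained contact of Zfpm1.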
